A study of Mus musculus with 6 samples.

Results

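The beta-1,4-galactosyltransferases are the 7 genes B4galt1 to B4galt7, found by gene symbol among the 56691 genes of the table. All 7 were present. The family was chosen by the counts of B4galt1 in these same libraries, which were lower on MSA-DA than on MSA-ZW hydrogels, so the differences between hydrogels given for its members are a description and carry no test. The cells were mouse macrophages of a line spelled RAW246.7 in the labels, of wild-type genotype, pretreated with lipopolysaccharide (LPS, an endotoxin of bacteria to which macrophages respond). They were then kept for 24 h on MSA-DA hydrogels or on MSA-ZW hydrogels, with 3 RNA sequencing libraries for each gel. Both groups carry the genotype and the LPS pretreatment, so only the gel differs by the labels, and cells on other surfaces or without LPS were not analysed here. By its title, the series asks how macrophages are affected by fibrin networks that form in hydrogels taking up unequal amounts of protein. Whether the 3 libraries of a gel are separate cultures is not stated in the labels, and the errors and p-values therefore cover only the spread between samples, possibly technical.

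Beta-1,4-galactosyltransferases sit in the Golgi and move galactose from UDP-galactose onto an acceptor sugar. On glycoproteins the acceptor is N-acetylglucosamine, and the product, N-acetyllactosamine (LacNAc), is the base that sialic acid and fucose are later added to and that galectins bind. B4galt1 is the member best known for this reaction, and in mice it is needed for the selectin ligands with which leukocytes roll on vessel walls. B4galt2 and B4galt3 act on the same kind of acceptor, B4galt4 prefers sulfated acceptors such as those of keratan sulfate, B4galt5 and B4galt6 make lactosylceramide, the root of most glycosphingolipids, and B4galt7 adds the first galactose of the linker that joins glycosaminoglycan chains to their core proteins.

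Count totals were 14374912 to 18346615 in the MSA-DA libraries and 16347934 to 18193026 in the MSA-ZW libraries, and no pair of libraries agreed within counting noise (chi-square per degree of freedom of at least 1.56). This value was 1.56 to 1.66 between MSA-DA libraries and larger, 2.75 to 4.48, between MSA-ZW libraries. Of 10 macrophage markers, 8 stood at 7.35 FPKM or more in every library (FPKM are counts scaled to exon length and library total), among them Csf1r at 161 to 189 FPKM and Cd68 at 463 to 485 FPKM. Fcgr3 had 36 to 45 counts and Mertk, close to absent, had 1 to 3. The markers summed to 2584 to 2620 FPKM on MSA-DA and to 3025 to 3092 FPKM on MSA-ZW, and most of this gap was Lyz2 alone, at 1323 to 1358 FPKM on MSA-DA and 1728 to 1769 FPKM on MSA-ZW. Without Lyz2 the sums were 1261 to 1264 FPKM on MSA-DA and 1297 to 1323 FPKM on MSA-ZW. The markers did not move one way: 4 lay lower on MSA-DA in every library, 3 lay higher and 3 overlapped. Scaled to library total, the groups did not overlap for 28.4% of all tested genes. Csf1r, Lyz2, Spi1 and Cd14 passed as lower (edgeR adjusted p of 0.0266 or below) and Itgam passed as higher (9.23e-05). Cd68 and Ptprc, which also lay higher, did not pass (edgeR adjusted p = 0.131 and 0.186). The part of the markers in the results was not tested. In a bulk sample, fewer cells of a type and less RNA per cell cannot be told apart. The 15 markers of fibroblasts, epithelium, endothelium and lymphocytes each stayed at or below 0.32 FPKM.

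Promoter sequences are shown for B4galt1, the member with the difference, and for B4galt5, the next most abundant member, whose groups overlapped. They run from 250 bases before to 50 bases after the annotated start, from RefSeq on GRCm38.p6, a build other than that of the deposited coordinates. Capitals mark the GC box GGGCGG read on either strand (here always as its reverse complement, CCGCCC). B4galt1 lies at chr4:40853935-40854234 and B4galt5 at chr2:167349129-167349428, both on the minus strand.
B4galt1: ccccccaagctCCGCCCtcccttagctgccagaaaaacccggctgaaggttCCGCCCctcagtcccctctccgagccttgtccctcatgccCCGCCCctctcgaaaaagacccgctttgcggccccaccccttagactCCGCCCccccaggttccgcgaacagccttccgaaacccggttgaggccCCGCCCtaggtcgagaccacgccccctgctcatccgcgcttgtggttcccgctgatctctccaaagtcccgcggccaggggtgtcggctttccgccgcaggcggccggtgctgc
B4galt5: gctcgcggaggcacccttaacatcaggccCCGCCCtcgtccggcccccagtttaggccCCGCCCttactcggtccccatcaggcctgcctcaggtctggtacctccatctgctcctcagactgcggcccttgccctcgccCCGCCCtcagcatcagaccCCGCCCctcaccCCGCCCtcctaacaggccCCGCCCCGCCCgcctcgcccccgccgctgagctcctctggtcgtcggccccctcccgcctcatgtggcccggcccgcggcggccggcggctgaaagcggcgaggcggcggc
The window held 5 GC boxes in B4galt1 and 7 in B4galt5, with overlapping copies counted separately. At least 1 was present in 35.7% of the 32851 RefSeq promoter windows of this length, and 2.71% held at least 5. Among the other members with a window, B4galt2 and B4galt3 had 2 each, B4galt4 had 1 and B4galt7 had 0. No window of the 6 matched members held TATAAA on either strand, a motif found in 13.6% of all windows. These are matches of letters and say nothing of which factors were bound.

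Expression of the family in these macrophages was uneven. B4galt1 was the most abundant member on both gels, B4galt5 came next, B4galt7, B4galt6 and B4galt3 were low to moderate, and B4galt2 and B4galt4 were hardly detected. Of the 5 members with enough reads to be fitted, B4galt1 did not overlap between the gels and the others did. B4galt1 also chose the family, and the groups did not overlap for 28.4% of all tested genes.

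**Figure D1:**
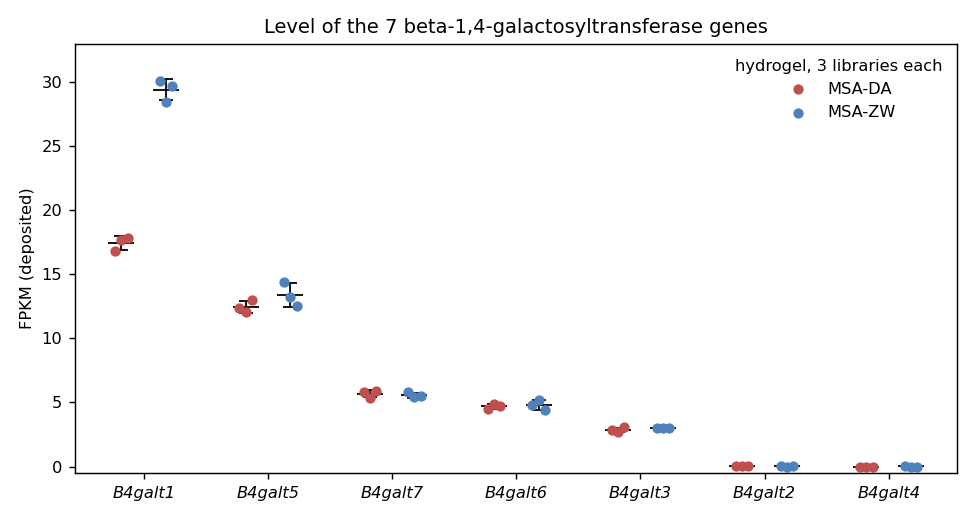
Deposited FPKM (y axis) of the 7 genes (x axis, ordered by mean level) in 3 MSA-DA libraries (red, left of each pair) and 3 MSA-ZW libraries (blue, right). Points are libraries and bars are the mean and SD; B4galt1 lies at 16.82 to 17.83 FPKM on MSA-DA and 28.50 to 30.09 FPKM on MSA-ZW, and the other genes overlap.

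B4galt1 (ENSMUSG00000028413, chromosome 4, 40804602 to 40854005, minus strand, GRCm39) had 1024, 1373 and 1194 counts in the MSA-DA libraries and 2102, 1973 and 2288 counts in the MSA-ZW libraries. Its level per exon length was 16.82, 17.68 and 17.83 FPKM on MSA-DA and 30.09, 28.50 and 29.70 FPKM on MSA-ZW. All MSA-DA libraries were below all MSA-ZW libraries, and within a gel the libraries lay close together. Scaled to library size, the level in CPM (counts scaled to library total) was 74.1 ± 2.26 on the MSA-DA gel, against 124 ± 3.27 on the MSA-ZW gel (SD, n = 3 each), which is 1.68-fold lower. The log2 difference was -0.75 (standard error 0.04) in the edgeR fit to all genes. Of the 12467 genes in that fit, 94 had a more negative log2 difference. The only annotated genes overlapping B4galt1 are small RNA loci inside it, including Mir5123, with at most 1 count in a library.

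Of the other members close to B4galt1 in reaction, B4galt3 overlapped between the gels, and B4galt2 and B4galt4 had too few counts to compare. B4galt3 (ENSMUSG00000052423, chromosome 1, 171097898 to 171104469, plus strand, GRCm39) had 2.84, 2.72 and 3.06 FPKM on MSA-DA and 3.02, 2.97 and 3.04 FPKM on MSA-ZW. The groups overlapped, and the log2 difference was -0.06 (standard error 0.09). It was -0.03 without MSA-DA replicate 2 and -0.12 without MSA-DA replicate 3. Part of B4galt3 overlaps Ppox on the opposite strand (183 to 231 counts per library), and whether counting used strand is not stated, so reads of the shared stretch cannot be told apart. B4galt2, whose enzyme is the closest relative of B4galt1, had 2, 2 and 3 counts on MSA-DA and 1, 0 and 2 on MSA-ZW. Part of B4galt2 overlaps Slc6a9 on the opposite strand (180 to 249 counts per library) and Ccdc24 on the same strand (0 to 2 counts). Reads of those shared stretches cannot be told apart either. B4galt4 had no count in any MSA-DA library and 1, 0 and 0 counts in the MSA-ZW libraries. Neither exceeded 3 counts in a library, a floor that corresponds to at most 0.0415 FPKM for B4galt2 and 0.065 FPKM for B4galt4, so no fold is given and a difference was not detectable at this depth. Such limits cover counting error only.

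The lactosylceramide synthases B4galt5 and B4galt6 were both expressed. B4galt5 (ENSMUSG00000017929, chromosome 2, 167140364 to 167191103, minus strand, GRCm39) had 12.39, 12.03 and 12.99 FPKM on MSA-DA and 14.42, 13.22 and 12.54 FPKM on MSA-ZW. MSA-ZW replicate 1 was the highest library, MSA-ZW replicate 3 lay within the MSA-DA range, and the log2 difference was -0.10 (standard error 0.05). It was -0.04 without MSA-ZW replicate 1 and -0.14 without MSA-ZW replicate 3. B4galt6 (ENSMUSG00000056124) had 4.52, 4.88 and 4.73 FPKM on MSA-DA and 4.78, 5.18 and 4.43 FPKM on MSA-ZW. Its groups overlapped, with a log2 difference of -0.01 and a standard error of 0.07, and the sign was positive without MSA-DA replicate 1 (0.01) and without MSA-ZW replicate 2 (0.04), and the value was most negative without MSA-ZW replicate 3 (-0.07).

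B4galt7, which adds the first galactose of the glycosaminoglycan linker (ENSMUSG00000021504, chromosome 13, 55747709 to 55758256, plus strand, GRCm39), had 5.79, 5.38 and 5.87 FPKM on MSA-DA and 5.80, 5.39 and 5.49 FPKM on MSA-ZW. The log2 difference was 0.04 (standard error 0.09), the only positive estimate of the 5, and the groups overlapped. Leaving out 1 library at a time gave 0.01 to 0.07, lowest without MSA-DA replicate 3 and highest without MSA-DA replicate 2, with values more than 1.5 times away also without MSA-DA replicate 1 (0.02), MSA-ZW replicate 1 (0.06) and MSA-ZW replicate 2 (0.01). The opposite-strand locus Gm15911 within it had 1 to 9 counts.

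**Figure D2:**
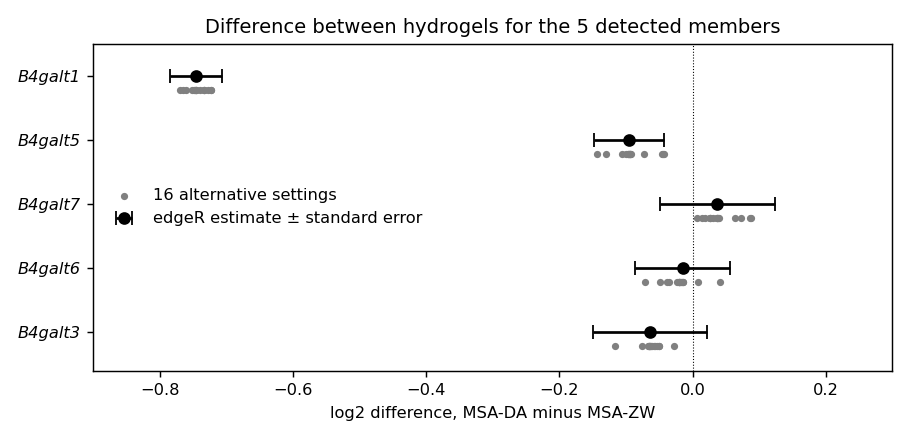
Log2 difference of MSA-DA minus MSA-ZW (x axis) for the 5 fitted members (y axis), as the edgeR estimate with its standard error (black) and under 16 other settings (grey points). B4galt1 stays between -0.77 and -0.72, and the other members lie near 0.

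Of the 7 members, 5 passed the filter on low counts and 2 did not. The edgeR quasi-likelihood fit across all genes called 1 of the 5, B4galt1, at an adjusted p below 0.05, where 13.4% of all tested genes were called and 6.5% were called lower on MSA-DA. The groups did not overlap in 1 of the 5, against 28.4% of all tested genes. Since this contrast chose the family, nothing is read from those counts. The median log2 difference was -0.06 over the 5 members and 0.00 over all tested genes. Genes with GC-rich transcripts tended to more negative log2 differences (Spearman rho of -0.32 across genes, a description). The transcript of B4galt1 has 50.6% GC, near the median of 49.1% over tested genes, and its log2 difference was -0.73 once GC content and length were corrected for. B4galt5 and B4galt7, at 54.0% and 55.3% GC, stood at -0.05 and 0.09 after that correction.

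The order of levels over all 6 libraries was B4galt1 (23.4 FPKM on average), B4galt5 (12.9 FPKM), B4galt7 (5.62 FPKM), B4galt6 (4.75 FPKM), B4galt3 (2.94 FPKM), B4galt2 (0.02 FPKM) and B4galt4 (0.0033 FPKM). Each of the first 5 was above the next in every library, and their ranges over the 6 libraries did not overlap. This holds for B4galt1 on MSA-DA too, where its lowest library (16.82 FPKM) was above the highest of B4galt5 (14.42 FPKM, on MSA-ZW). B4galt2 and B4galt4 did not differ beyond their spread. B4galt1 was above 81.4% of the tested genes in mean FPKM, and B4galt3 above 31.2%.

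The make-up of the family differed between the gels. The members summed to 43.2 ± 1.15 FPKM on MSA-DA and 56.2 ± 1.67 FPKM on MSA-ZW (SD, n = 3 each). Without B4galt1 the sums were 25.8 ± 0.847 FPKM on MSA-DA and 26.8 ± 1.27 FPKM on MSA-ZW. B4galt1 held 40.4 ± 0.903% of the family sum on MSA-DA and 52.4 ± 1.23% on MSA-ZW, and B4galt5 held 28.9 ± 0.599% and 23.8 ± 1.05% on the same gels. The ratio of B4galt1 to B4galt5 within a library was 1.40 ± 0.0609 on MSA-DA and 2.2 ± 0.147 on MSA-ZW. These shares follow from the same reads that chose the family and are a description.

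**Figure D3:**
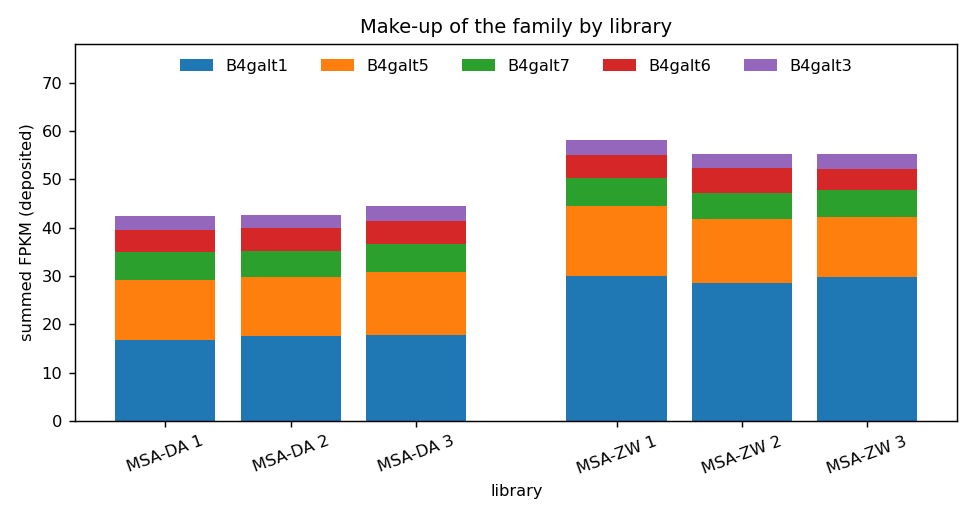
Deposited FPKM stacked for the 5 expressed members (y axis) in each library (x axis, MSA-DA left, MSA-ZW right). The B4galt1 segment at the base is 16.82 to 17.83 FPKM on MSA-DA and 28.50 to 30.09 FPKM on MSA-ZW, while the other segments sum to 25.8 ± 0.847 FPKM on MSA-DA and 26.8 ± 1.27 FPKM on MSA-ZW.

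Around the family, 128 genes that supply, precede, extend, cap, remove or bind beta-1,4-linked galactose were looked up in 12 lists, and 84 had enough reads to be tested. The edgeR test called 18 of the 84 (adjusted p below 0.05), 6 higher and 12 lower on MSA-DA. These 18 are 21.4% of those tested, where 13.4% of all tested genes were called, with 6.92% called higher and 6.5% called lower. With DESeq2 2 were higher and 9 lower of 67 tested, beside 949 of 7577 genes called in all. Limma (log2 of FPKM + 1) gave 0 higher and 7 lower of 80 tested, beside 906 of 10874 in all. The median log2 difference was -0.00 over the 84 genes and 0.00 over all tested genes. The largest change among the called genes was that of Gcnt1, and all were smaller than the log2 difference of B4galt1. The single lists are small, and their counts below stand beside the 13.4% of all tested genes that edgeR called.

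**Figure D4:**
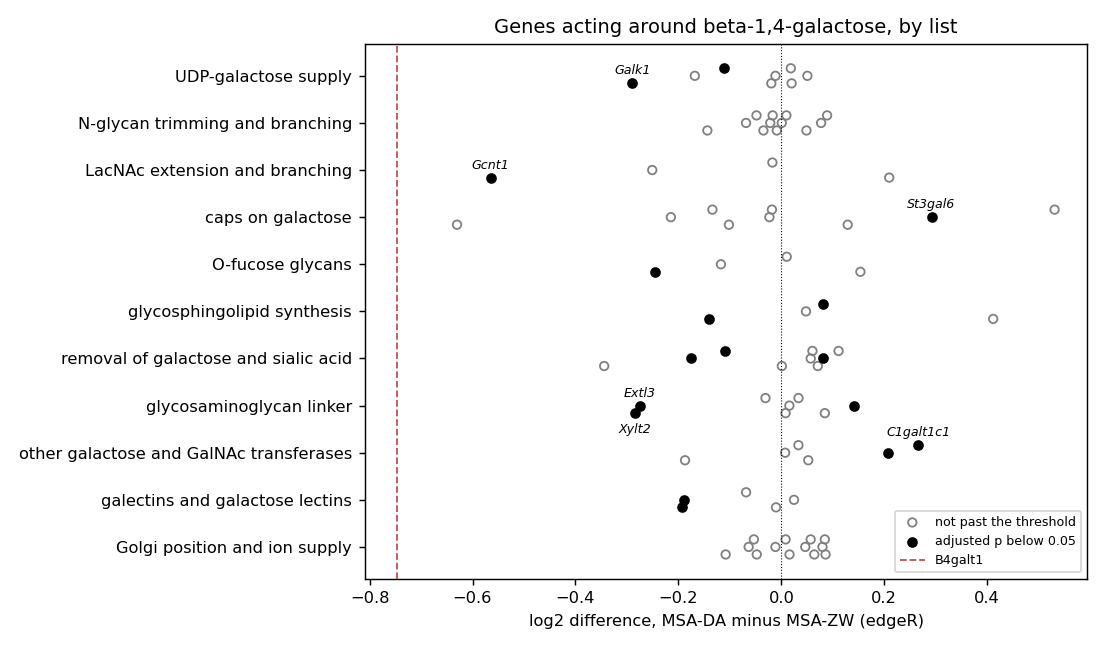
Log2 difference of MSA-DA minus MSA-ZW (x axis, edgeR) for the tested genes of 11 lists (y axis), with 2 genes of the removal list left out. Filled points passed an adjusted p of 0.05, open points did not, and the dashed line marks B4galt1 at -0.75; Gcnt1 is the called gene nearest to it.

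Of 8 tested genes for UDP-galactose supply, 2 fell and 6 did not pass, with a median log2 difference of -0.02. Galk1, the kinase that begins galactose use, was 1.22-fold lower at 32.0 ± 2.65 CPM on the MSA-DA gel, against 39.1 ± 3.09 CPM on the MSA-ZW gel (SD, n = 3, edgeR adjusted p = 0.00295). Pgm1, a phosphoglucomutase, was 1.08-fold lower (edgeR adjusted p = 0.0188), and its call was lost without MSA-DA replicate 3 (adjusted p = 0.137). Limma on log2(FPKM + 1) called neither (adjusted p = 0.0523 and 0.0569). Slc35a2, which carries UDP-galactose into the Golgi, had 16.5 ± 1.10 CPM on the MSA-DA gel, against 16.2 ± 1.30 CPM on the MSA-ZW gel (edgeR adjusted p = 0.924).

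The steps that build the acceptor on N-glycans gave no calls. Of 12 tested trimming and branching genes edgeR called 0, DESeq2 called 0 and limma called 0, while 2 had an unadjusted edgeR p below 0.05. Since edgeR called 13.4% of all tested genes, nothing is read from 0 calls among 12. Mgat1, which adds the first branch, had 30.0 ± 0.0871 CPM on the MSA-DA gel, against 31.0 ± 2.22 CPM on the MSA-ZW gel (edgeR adjusted p = 0.717). Without MSA-ZW replicate 3 edgeR called 2 of the 12, 1 higher and 1 lower.

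In the list of enzymes that branch, extend or sulfate LacNAc chains, 4 of 14 were tested, and 1 fell. Gcnt1 makes the core 2 branch of O-glycans, an acceptor for galactose. It had 16.1, 18.4 and 15.7 CPM on MSA-DA and 25.6, 25.3 and 23.6 CPM on MSA-ZW, with no overlap. It was 1.48-fold lower, with a log2 difference of -0.56 and a standard error of 0.08 (edgeR adjusted p = 4.74e-06), and it passed in each of the 16 other settings. The others tested were B3gnt2, B3gnt3 and Chst1, none of which passed the edgeR test on all 6 libraries without a replicate block. B3gnt3 was near the threshold (edgeR adjusted p = 0.0617) and was called lower without MSA-DA replicate 2 (adjusted p = 0.0307).

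Enzymes that cap galactose had 9 tested members of 17, of which 1 rose and 8 did not pass. St3gal6, a sialyltransferase acting on LacNAc, was 1.22-fold higher at 22.01 ± 2.06 CPM on the MSA-DA gel, against 17.9 ± 1.96 CPM on the MSA-ZW gel (SD, n = 3, edgeR adjusted p = 0.0227), although its groups overlapped. Its call was lost without MSA-DA replicate 1, MSA-DA replicate 2, MSA-ZW replicate 1 or MSA-ZW replicate 2 (adjusted p of 0.133, 0.129, 0.159 and 0.0538), with DESeq2 (0.0907), with limma (0.148) and after the GC and length correction (0.0602). St6gal1, which adds alpha-2,6-linked sialic acid to LacNAc, had 25.2 ± 1.39 CPM on the MSA-DA gel, against 29.2 ± 2.74 CPM on the MSA-ZW gel and missed the threshold (edgeR adjusted p = 0.0501). It passed with RLE size factors (0.048), with upper-quartile size factors (0.0494) and without MSA-ZW replicate 2 (0.0117).

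Of 4 genes for O-fucose glycans, whose GlcNAc can also receive galactose, 1 fell. Lfng, the fringe enzyme that modifies Notch receptors, was 1.19-fold lower at 32.8 ± 3.07 CPM on the MSA-DA gel, against 38.9 ± 0.922 CPM on the MSA-ZW gel (SD, n = 3, edgeR adjusted p = 0.00886). Its call was lost without MSA-DA replicate 3 (adjusted p = 0.0904), with limma (0.0543) and after the GC and length correction (0.0669).

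Glycosphingolipid synthesis, on both sides of B4galt5 and B4galt6, had 4 tested genes of 8, with 1 higher, 1 lower and 2 not called. Ugcg makes the glucosylceramide that these enzymes galactosylate, and had 48.1 ± 2.11 CPM on the MSA-DA gel, against 46.7 ± 1.43 CPM on the MSA-ZW gel (SD, n = 3, edgeR adjusted p = 0.634). St3gal5, which turns lactosylceramide into ganglioside GM3, was 1.06-fold higher (edgeR adjusted p = 0.0463). B4galnt1, which makes GM2 and related gangliosides, was 1.10-fold lower (edgeR adjusted p = 0.0303). St3gal5 lost its call without MSA-DA replicate 1, 2 or 3 or MSA-ZW replicate 1 or 2 (adjusted p from 0.0781 to 0.242), and B4galnt1 without MSA-DA replicate 1, 2 or 3 or MSA-ZW replicate 3 (0.0602 to 0.192). DESeq2 called neither (0.0545 and 0.108), nor did limma (0.0678 and 0.0686). St3gal5 was also lost with RLE size factors (0.0506) and without a filter on low counts (0.101), and B4galnt1 after the GC and length correction (0.345).

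Genes that remove galactose or sialic acid in the lysosome, with their activators and partners, had 11 tested members, of which 3 fell, 1 rose and 7 did not pass. Psap, the precursor of the saposins, was 1.08-fold lower (edgeR adjusted p = 0.000875). Glb1, the beta-galactosidase that cleaves the bond this family makes, was 1.13-fold lower at 51.6 ± 1.98 CPM on the MSA-DA gel, against 58.2 ± 2.24 CPM on the MSA-ZW gel (edgeR adjusted p = 0.0154). Its call was lost without MSA-DA replicate 3 or MSA-ZW replicate 2 (adjusted p of 0.0937 and 0.0597) and with DESeq2 (0.0667). Ctsa, the protective protein of Glb1 and Neu1, was 1.06-fold higher (edgeR adjusted p = 0.0246). Its call was lost when any 1 of the MSA-DA libraries, MSA-ZW replicate 1 or MSA-ZW replicate 2 was left out (0.0535 to 0.161), with limma (0.0543) and without a filter on low counts (0.0611). The list's count of calls was 2 without MSA-DA replicate 3 and 2 without MSA-ZW replicate 2.

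The glycosaminoglycan linker, where B4galt7 acts, had 8 tested genes of 10, with 2 lower, 1 higher and 5 not called. Extl3, which helps start heparan sulfate chains, was 1.21-fold lower at 62.1 ± 4.28 CPM on the MSA-DA gel, against 75.4 ± 3.95 CPM on the MSA-ZW gel (SD, n = 3, edgeR adjusted p = 0.00015). Xylt2 supplies the xylose that B4galt7 extends, and was 1.22-fold lower at 21.7 ± 2.71 CPM on the MSA-DA gel, against 26.4 ± 1.10 CPM on the MSA-ZW gel (edgeR adjusted p = 0.0148). Xylt2 lost its call without MSA-DA replicate 3 or MSA-ZW replicate 1 (adjusted p of 0.156 and 0.0603), with DESeq2 (0.0591), with limma (0.0915) and after the GC and length correction (0.0886). Csgalnact2, which starts chondroitin chains, was 1.10-fold higher (edgeR adjusted p = 0.0296). That call was lost when any 1 of the MSA-DA libraries or MSA-ZW replicate 2 was left out (0.0629 to 0.209), with DESeq2 (0.11), with limma (0.136) and after the GC and length correction (0.446). Without MSA-DA replicate 3 the list had 1 call.

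Of 6 tested genes outside the family that add galactose or N-acetylgalactosamine or help such an enzyme, 2 rose. B3galnt2, which acts on alpha-dystroglycan, was 1.15-fold higher at 57.2 ± 1.99 CPM on the MSA-DA gel, against 49.6 ± 4.44 CPM on the MSA-ZW gel (SD, n = 3, edgeR adjusted p = 0.00949), and lost its call without MSA-DA replicate 2 or MSA-ZW replicate 2 (adjusted p of 0.0965 and 0.126) and with limma (0.127). Its log2 difference was 0.21 with all libraries and 0.13 without MSA-ZW replicate 2. C1galt1c1, the chaperone of the O-glycan core 1 galactosyltransferase, had a log2 difference of 0.27 (edgeR adjusted p = 0.0286), which was 0.16 without MSA-DA replicate 1. It lost its call without MSA-DA replicate 1 or 3 or MSA-ZW replicate 1 or 3 (0.0506 to 0.286), with DESeq2 (0.0997), with limma (0.116) and after the GC and length correction (0.158).

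The list of lectins that bind galactose, which also holds the galectin ligand Lgals3bp, had 5 tested genes of 13, and 2 fell. Lgals9, a galectin, was 1.14-fold lower at 281 ± 9.38 CPM on the MSA-DA gel, against 320 ± 0.924 CPM on the MSA-ZW gel (SD, n = 3, edgeR adjusted p = 1.63e-05). Lgals3bp, a secreted glycoprotein that galectin-3 binds, was 1.14-fold lower at 640 ± 11.2 CPM on the MSA-DA gel, against 732 ± 9.79 CPM on the MSA-ZW gel (edgeR adjusted p = 4.38e-07). Both passed in each of the 16 other settings. Lgals3, which encodes galectin-3, had 404 ± 9.72 CPM on the MSA-DA gel, against 407 ± 9.27 CPM on the MSA-ZW gel (edgeR adjusted p = 0.871).

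Genes that place glycosyltransferases in the Golgi or supply its manganese, such as Tmem165 and the subunits of the COG tethering complex, gave no calls. Of 13 tested, edgeR called 0, DESeq2 called 0 and limma called 0, with 1 at an unadjusted edgeR p below 0.05. Without MSA-ZW replicate 1 edgeR called 1 as higher. Since edgeR called 13.4% of all tested genes, nothing is read from 0 calls among 13. Lalba, the milk protein alpha-lactalbumin that turns B4galt1 into lactose synthase, had 0 counts in all 6 libraries.

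The genes with the pattern most like B4galt1 were those with the smallest Euclidean distance between log2 CPM profiles, each minus its own mean, over 6 libraries. From 8332 genes of at least 10 CPM, the 5 nearest were Itgb5, Siglec1, Acsbg1, Cd36 and Skil. Itgb5 is an integrin subunit, Siglec1 a macrophage lectin for sialic acid, Acsbg1 a fatty acyl-CoA synthetase, Cd36 a scavenger receptor, and Skil a nuclear protein that restrains SMAD signalling. The distance was 0.14 for Itgb5, 0.22 for Siglec1, 0.23 for Acsbg1, 0.23 for Cd36 and 0.25 for Skil, and Pearson r with B4galt1 ran from 0.968 to 0.995. These are a description over 6 libraries in 2 groups, and the distance and r both include the difference between the gels. Itgb5 had 15.2, 15.3 and 15.5 CPM on MSA-DA and 27.3, 27.6 and 25.6 CPM on MSA-ZW. Siglec1 had 30.3, 30.3 and 30.8 CPM on MSA-DA and 47.4, 44.9 and 44.4 CPM on MSA-ZW. The log2 difference was -0.81 for Itgb5 and -0.58 for Siglec1, on either side of the -0.75 of B4galt1.

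**Figure D5:**
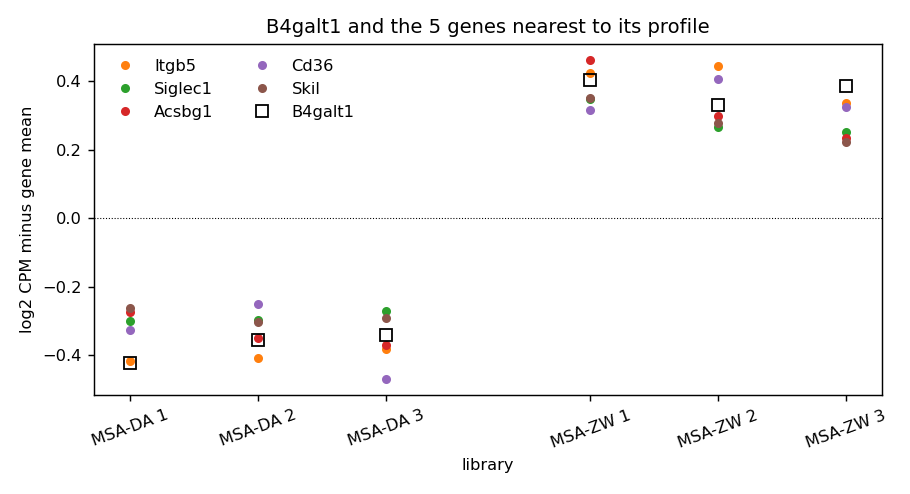
Log2 CPM minus each gene's mean over the 6 libraries (y axis) for B4galt1 (open squares) and its 5 nearest genes (filled points) in each library (x axis, MSA-DA left, MSA-ZW right). All 6 genes lie below 0 in the MSA-DA libraries and above 0 in the MSA-ZW libraries.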

How the data were processed

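RNA was sequenced from 3 MSA-DA and 3 MSA-ZW libraries, grouped by title. HISAT2 2.2.1, cutadapt 1.9.1, bcl2fastq 2.20.0.422 and the build GRCm39 are named per the submitters' processing notes. How reads were counted, with which annotation and strand setting, is not stated. The authors deposited raw counts and FPKM for 56691 genes in 1 table, per the file headers. FPKM recomputed from the deposited counts, exonic gene lengths and count totals differed from the deposited FPKM by at most 0.005.

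Counts were tested with edgeR 4.0.16 in R 4.3.3 (TMM, filterByExpr, glmQLFit, glmQLFTest, gel as the only term), with Benjamini-Hochberg adjustment over 12467 genes and a threshold of 0.05. CPM use TMM-scaled library sizes, and a standard error is the log2 difference divided by the square root of F. The fits were also run on counts simulated from the edgeR estimates, which cannot show how well they suit these data. DESeq2 1.42.0, limma 3.58.1 on log2(FPKM + 1), other size factors and filters, a replicate block, a correction for GC content and length (values for 98.9% of tested genes), and leaving out each library were alternatives. Fold changes on the limma scale understate changes of low genes.

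The members and lists were chosen with earlier results of these data known. All members, up to 3 called genes per list and direction, and Slc35a2, Ugcg, Mgat1, St6gal1, Lgals3, Xylt2 and Lalba are named, except 1 called gene that is not reported here. B3gnt2, B3gnt3, Chst1 and Tmem165 are named outside this rule, chosen after their values were seen. Of 129 list symbols, 128 matched. RefSeq promoter windows matched 6 of 7 members.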

Additional observations from a re-analysis of the deposited data

How the results depend on the processing

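The log2 differences of the 5 fitted members moved by less than the spread between replicates in each of 16 alternatives. B4galt1 stayed between -0.77 and -0.72 and kept its sign, and the order of levels was the same with TPM and without each library. The count of all genes called was 1673 with edgeR, 949 with DESeq2, 906 with limma on log2(FPKM + 1), 895 with log2(FPKM + 0.1), 412 with limma without a filter, and 1001 to 1654 when 1 library was left out. It fell by more than 1.5 times without MSA-DA replicate 2 (1001) and without MSA-DA replicate 3 (1065). Of the genes in the lists, 18 were called with edgeR, 11 with DESeq2, 7 with limma at either pseudocount, 4 with limma without a filter, and 9 to 19 when 1 library was left out, with 9 without MSA-DA replicate 3. Limma without a filter tested 23514 genes, while edgeR without a filter tested 23573 and called 1507. The cause of these changes was not tested. Gcnt1, Lgals9 and Lgals3bp passed in all 16 alternatives. With GC content and length corrected for, 13 list genes were called, 12 of them among the 18.

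Same-numbered libraries did not deviate together: the correlations of their deviations from the group means were 0.01, 0.02 and -0.00, and not every library correlated best with its own number. With the replicate number as a block, B4galt1 stood at -0.75, 1594 genes were called in all and 18 in the lists, 17 of them the same; St3gal5 was lost (edgeR adjusted p = 0.0522) and B3gnt3 was gained as lower (0.0468). With the block and the GC and length correction together these were -0.73, 1288 and 13. Depth limits B4galt2 and B4galt4, which had 3 counts or fewer in every library.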
